A study of Sus scrofa with 26 samples.

Results

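The HSP90 machinery was examined in the subcutaneous adipose tissue (SCAT) of pigs, through every microarray probe that the annotation columns of the scanner files assign to 1 of 9 genes. These were the HSP90 chaperones HSP90AA1, HSP90AB1, HSP90B1 and TRAP1, the co-chaperones AHSA1, STIP1, CDC37 and FKBP4, and the transcription factor HSF1. In all, 42 of the 60305 probes that were not controls belonged to 8 of these genes, and no probe was matched to STIP1, which is not analysed here. HSP90B1 had 12 probes, HSP90AA1 9, HSP90AB1 7, AHSA1 5, CDC37 and FKBP4 3 each, TRAP1 2 and HSF1 1. A probe was tested if its spot was well above background on 8 or more arrays, and 40 of the 42 were.

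RNA of castrated male pigs of 3 breeds was hybridised, 1 animal per array, on 26 one-colour arrays. The pigs were Creole, Large White (LW) or F1, the cross of these breeds. Pigs at thermoneutrality (TN, 24 °C in the labels) comprised 3 Creole, 4 F1 and 4 LW animals, and pigs under heat stress (HS) comprised 5 animals of each breed. Heat stress is 30 °C in the labels, whereas the study's methods give a slightly higher temperature, held for up to 5 days. The methods also state that TN animals were killed ahead of the warm period, so temperature, slaughter day and age cannot be told apart. Because whole tissue was used, fewer cells of a type and less RNA per cell cannot be told apart.

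HSP90 proteins are ATP-driven chaperones that complete the folding of already partly folded client proteins, such as steroid hormone receptors and kinases. HSP90AA1 is the stress-inducible cytosolic form and HSP90AB1 the constitutive one, while HSP90B1 (GRP94, endoplasmin) works in the endoplasmic reticulum and TRAP1 in mitochondria. Co-chaperones set the pace of the cycle: AHSA1 stimulates the ATPase, STIP1 hands clients over from HSP70, CDC37 delivers kinases and FKBP4 accompanies steroid receptors. HSF1 drives the cytosolic heat shock genes and is itself held in check by HSP90 in unstressed cells.

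A choice of probes is printed, as 60-base runs written 5′ to 3′ as in the array files: some that passed the threshold below, and some that did not but show how probes of the same gene overlap or differ. One of the HSP90B1 probes that was higher in HS (stated start in the transcript, base 830; the brightest probe of this gene is not printed), and the AHSA1 and TRAP1 probes with the largest breed differences of their genes, read as follows.
HSP90B1 A_72_P588721: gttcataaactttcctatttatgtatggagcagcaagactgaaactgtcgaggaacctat
AHSA1 A_72_P533949: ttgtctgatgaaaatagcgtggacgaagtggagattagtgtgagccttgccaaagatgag
TRAP1 A_72_P063446: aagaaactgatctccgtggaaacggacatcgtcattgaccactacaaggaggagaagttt

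For HSP90AA1, 2 probes are shown because their breed estimates had opposite signs, although 1 of them did not pass, and the stated starts in the transcript were bases 662 and 1898. The sequence of the latter was printed on the array under 2 names, A_72_P525187 and O8902.
HSP90AA1 A_72_P700356: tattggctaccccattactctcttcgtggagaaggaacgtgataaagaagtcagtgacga
HSP90AA1 A_72_P525187: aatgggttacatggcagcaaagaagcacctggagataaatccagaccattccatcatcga

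For HSP90AB1, the pair of probes that was lower in LW shares the 49 bases in capitals, so these probes are not independent readings.
HSP90AB1 A_72_P690394: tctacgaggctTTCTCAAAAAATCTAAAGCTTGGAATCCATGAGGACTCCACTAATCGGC
HSP90AB1 A_72_P623359: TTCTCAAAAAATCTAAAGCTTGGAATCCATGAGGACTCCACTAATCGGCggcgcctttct
Another pair, at stated starts 782 and 789, overlaps over 53 bases, of which 50 are equal. The capitals mark the 3 bases that differ.
HSP90AB1 A_72_P424164: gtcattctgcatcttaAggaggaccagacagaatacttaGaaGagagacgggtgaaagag
HSP90AB1 A_72_P763852: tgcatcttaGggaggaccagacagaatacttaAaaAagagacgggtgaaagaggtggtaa

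Some probes assigned to the family by name carry opposite-strand sequence or were not well above background. The HSP90B1 probe O7995 carries the reverse complement of 39 bases (in capitals) of the probe CUST_304.
HSP90B1 CUST_304: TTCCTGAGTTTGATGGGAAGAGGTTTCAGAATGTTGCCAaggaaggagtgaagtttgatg
HSP90B1 O7995: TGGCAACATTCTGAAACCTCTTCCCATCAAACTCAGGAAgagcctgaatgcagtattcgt
The HSP90AB1 probe O14652 likewise carries the reverse complement of 30 bases of A_72_P051491. Both opposite-strand probes were still tested, since O7995 was well above background on 25 arrays and O14652 on 26. An HSP90B1 probe named through its description, A_72_P414208, was not well above background on any array, with normalised log2 intensities from 4.86 to 5.36. The capitals mark the 28 bases it shares, on the same strand, with A_72_P665834, a probe that was well above background on 26 arrays.
HSP90B1 A_72_P414208: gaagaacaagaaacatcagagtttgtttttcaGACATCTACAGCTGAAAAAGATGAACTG
The TRAP1 probe O10647 was well above background on 1 array, with log2 intensities from 5.10 to 5.67, and TRAP1 is therefore described by a single probe. The strand of O10647 was not checked against the transcript.

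All values below are log2 intensities after quantile normalisation, and they are compared between arrays for the same probe only. Each gene is represented by its brightest tested probe, and adjusted p-values come from limma over the 44703 probes tested, with 0.05 as the threshold. No spot was saturated, and every brightest probe was well above background on all 26 arrays. As the labels give no replicate numbers, arrays are numbered in deposit order. The marker genes of adipocytes were well above background on all arrays for 8 of 9 listed genes, PLIN4 not being measured.

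**Figure D1:**
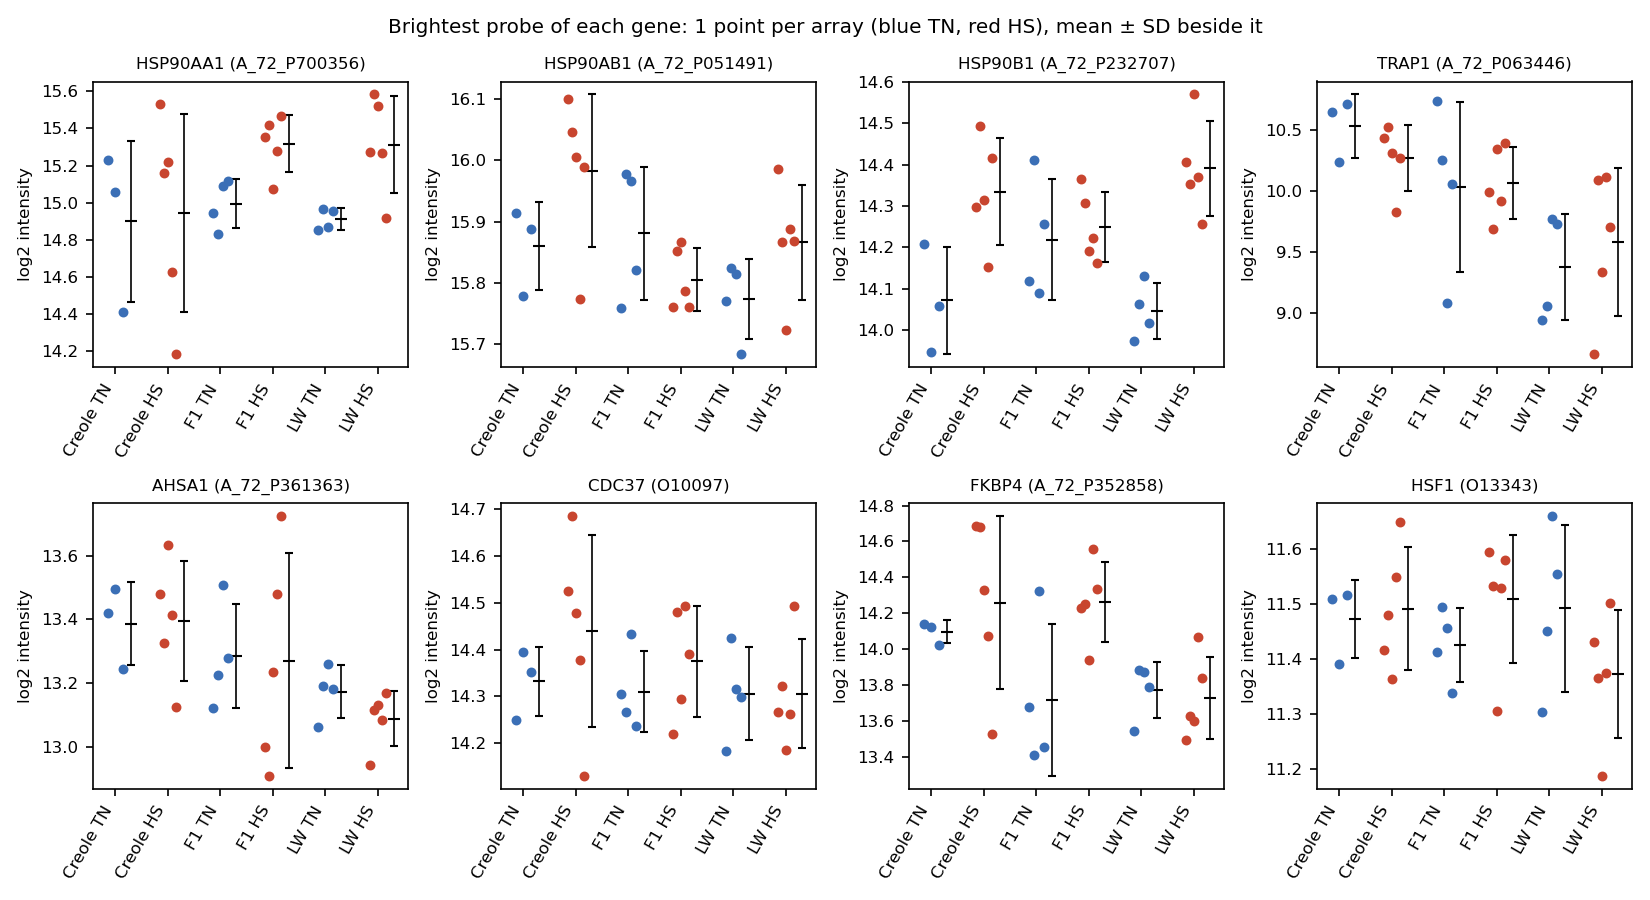
Normalised log2 intensity of the brightest probe of each of the 8 genes in the 6 groups of breed and temperature. Each point is 1 array (blue TN, red HS), and the bar beside it is the mean ± SD. The LW TN arrays of HSP90B1 lie between 13.97 and 14.13 and all 5 LW HS arrays lie above them, while TRAP1 is lower in both LW groups than in both Creole groups on average.

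The gene of the family that differed between temperatures was HSP90B1, the endoplasmic reticulum form. On A_72_P232707, the TN arrays read 14.21, 13.95 and 14.06 in Creole, 14.12, 14.41, 14.09 and 14.26 in F1 and 13.97, 14.06, 14.13 and 14.02 in LW. The HS arrays read 14.30, 14.49, 14.31, 14.15 and 14.42 in Creole, 14.36, 14.31, 14.19, 14.22 and 14.16 in F1 and 14.41, 14.35, 14.57, 14.37 and 14.26 in LW. The TN and HS arrays overlapped, with 8 of the 11 TN arrays below the lowest HS array and 3 of the 15 HS arrays above the highest TN array. With breed in the model, HSP90B1 rose in HS by 0.21 ± 0.05 (SE) on the log2 scale, a 1.16-fold difference (95% interval 0.10 to 0.32, adjusted p = 0.0112), and 13 of 15 HS arrays lay above the TN mean of their breed. A second spot of the same 60 bases, named by a sequence identifier, gave 0.22 ± 0.05 (SE) (adjusted p = 0.0081). The difference on A_72_P588721, which does not overlap these, was 0.23 ± 0.06 (SE) (adjusted p = 0.00954), and 12 of 15 HS arrays lay above the TN mean of their breed.

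The TN and HS arrays of A_72_P588721 overlapped as well. On A_72_P588721, the lowest, median and highest of the 11 TN arrays were 13.77, 13.90 and 14.10, and those of the 15 HS arrays were 13.81, 14.18 and 14.34. Here 10 HS arrays lay above every TN array, and 1 TN array lay below every HS array. Of the other HSP90B1 probes, the 7 on the same strand did not pass the threshold, with estimates from 0.09 to 0.18 and adjusted p from 0.0724 to 0.399. The estimate for the opposite-strand probe O7995 was 0.00 (95% interval -0.14 to 0.14). When the 11 tested HSP90B1 probes were averaged, the change was 0.14 ± 0.05 (SE, adjusted p = 0.0818), short of the threshold. HS minus TN was above 0 on each of the 5 slides for all 3 HSP90B1 probes past the threshold, from 0.11 to 0.37 on A_72_P232707.

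Of the 40 tested member probes, 3 (7.5%) passed the threshold for HS minus TN, all of them HSP90B1 and higher in HS. Over all tested probes, 12.2% passed in either direction and 5.17% were higher in HS. The member share in either direction was below this background. The median change was 0.03 over the member probes and 0.00 over all probes, and 8 member probes had an unadjusted p under 0.05, against 26.9% of all probes.

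Markers of other cells moved with temperature. The red blood cell score, the mean centred level of 6 of 8 marker genes, ranged from 0.03 to 0.47 in TN and from -0.49 to 0.28 in HS, a difference of -0.28 (permutation within breeds, two-sided p = 5e-04, adjusted over 8 lists p = 0.004). The fibroblast and matrix score, with 8 of 8 genes measured, ranged from -0.86 to 0.32 in TN and from -0.19 to 0.67 in HS and was higher in HS by 0.28 (permutation p = 0.00406, adjusted p = 0.0162). The adipocyte score did not pass (permutation p = 0.147) and ranged from -0.11 to 0.28 in TN and from -0.31 to 0.38 in HS. The other 5 scores did not pass either, with permutation p from 0.141 to 0.602. With the red blood cell score as a covariate, the estimate for HSP90B1 was 0.15 on A_72_P232707 (adjusted p = 0.335), no member probe passed, and 214 probes of the whole array passed instead of 5447. The part of the fibroblast score was not tested. With the 75th percentile of the processed signal as the scale, the estimate for HSP90B1 A_72_P232707 was 0.10 (adjusted p = 0.211), and no member probe passed. All 11 HSP90B1 estimates were above 0 on that scale, from 0.03 to 0.12, against 10 of 11 with quantile normalisation. This scaling also moved the median change of the 3273 probes with a mean level of at least 13, a limit chosen after seeing the data, from 0.01 to -0.09, while that of all probes was 0.02.

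**Figure D2:**
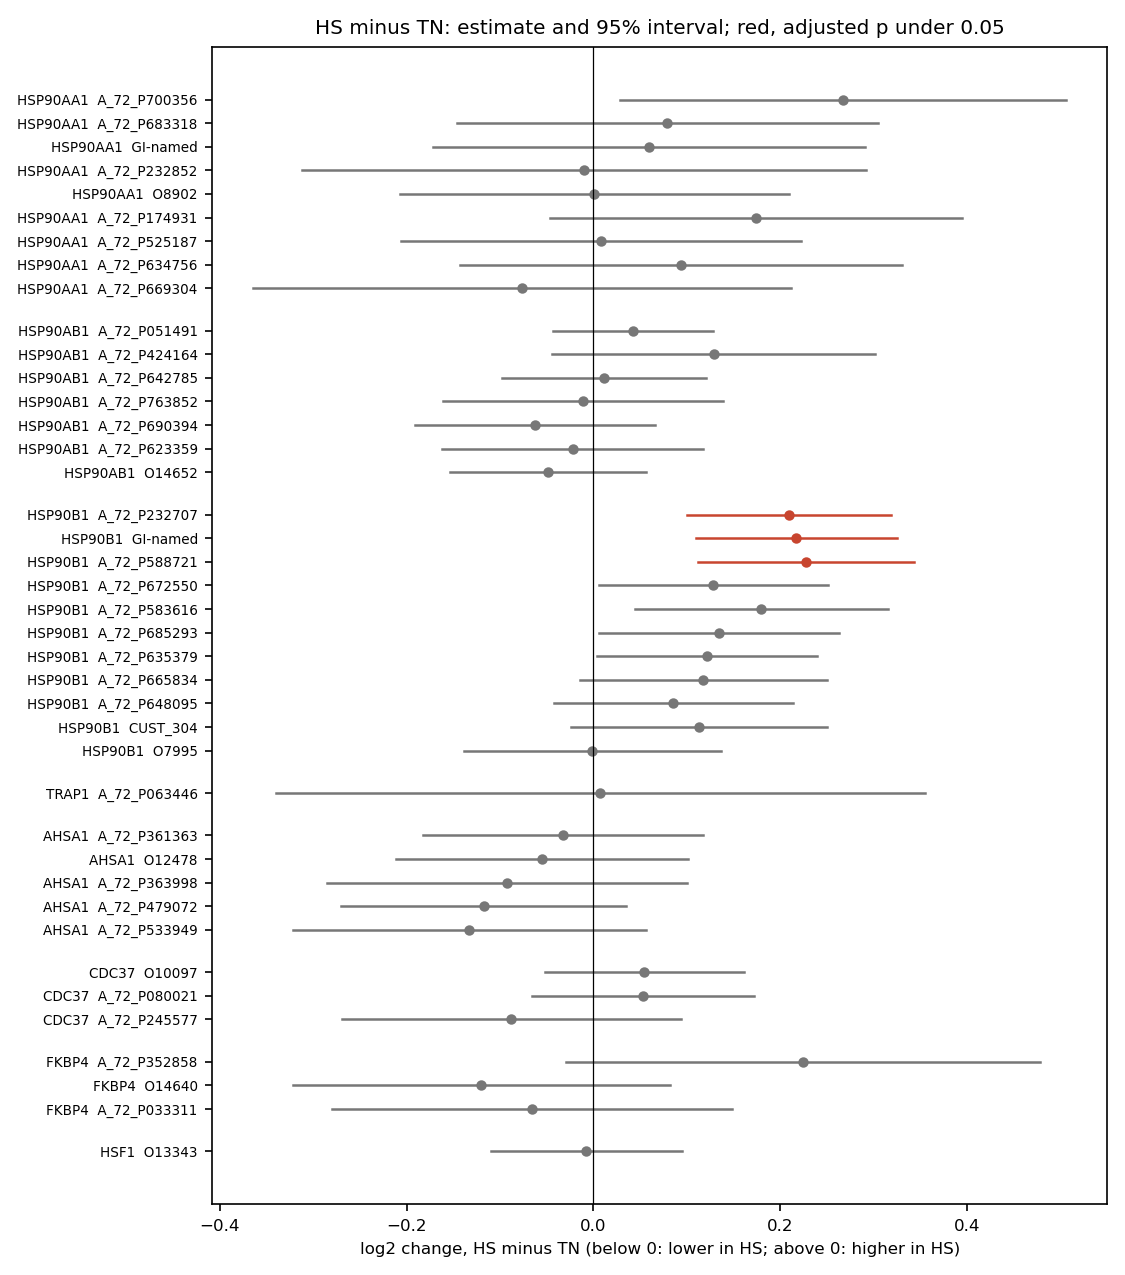
Log2 change from TN to HS of the 40 tested member probes, with 95% intervals from limma with breed in the model; red marks an adjusted p under 0.05 and grey the rest, and the label GI-named stands for a probe known by a sequence identifier. The 3 red estimates all belong to HSP90B1, at 0.21 to 0.23 with intervals that together span 0.10 to 0.34, and the estimates of the other 7 HSP90B1 probes of the same strand lie between 0.09 and 0.18.

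Within breeds, HSP90B1 was higher in HS in LW. There the change on A_72_P232707 was 0.34 ± 0.08 (SE) (adjusted p = 0.0322), and all 5 HS arrays lay above all 4 TN arrays. The spot with the same bases changed by 0.34 ± 0.08 (SE) (adjusted p = 0.0343). Thus 2 of 40 member probes passed in LW, against 1.5% of all probes. No member probe passed in LW when any of 8 of the 9 LW arrays was left out, the exception being LW HS 5, nor with slide as a fixed block. In Creole, the change on A_72_P232707 was 0.26 ± 0.09 (SE) (adjusted p = 0.254), and in F1 it was 0.03 ± 0.08 (SE) (adjusted p = 0.899). No member probe passed in Creole or in F1 with limma, where 0.0716% and 0.421% of all probes did, and 7 and 3 of the 40 member probes had an unadjusted p under 0.05, against 11.1% and 16% of all probes. The interaction of breed and temperature, the test of a difference between breeds in the response, passed for no member probe with limma (lowest adjusted p = 0.897) and for 0.00224% of all probes. At an unadjusted p under 0.05 there were 3 of 40 member probes, against 5.23% of all probes. For A_72_P232707, its p was 0.0303 before adjustment. Across the HSP90B1 probes, estimates were above 0 on 11 of 11 in Creole, from 0.12 to 0.31, on 10 of 11 in LW and on 5 of 11 in F1, where they ran from -0.10 to 0.11.

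The inducible cytosolic form, HSP90AA1, did not pass the threshold on any of its 9 probes. On A_72_P700356, the TN arrays read 15.23, 15.06 and 14.41 in Creole, 14.95, 14.83, 15.09 and 15.12 in F1 and 14.85, 14.97, 14.87 and 14.96 in LW. The HS arrays read 15.53, 15.16, 15.22, 14.63 and 14.18 in Creole, 15.35, 15.42, 15.07, 15.28 and 15.47 in F1 and 15.28, 15.58, 15.52, 15.27 and 14.92 in LW. Creole HS spread over more than a log2 unit, with replicate 5 the lowest of all arrays. The estimated change was 0.27 ± 0.12 (SE) (95% interval 0.03 to 0.51, adjusted p = 0.133), and 13 of 15 HS arrays were above the TN mean of their breed. Without Creole HS 5 it was 0.33 and passed (adjusted p = 0.0258), and without any other single array it did not. Within breeds, the estimate was 0.05 in Creole, 0.32 in F1 and 0.40 in LW (adjusted p = 0.972, 0.438 and 0.309). The other 8 probes changed by -0.08 to 0.17 (adjusted p from 0.309 to 0.996), and 75th percentile scaling left 3 of the 9 estimates above 0. The average of the 9 probes changed by 0.07 ± 0.10 (SE, adjusted p = 0.729).

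The constitutive form, HSP90AB1, did not pass on any of its 7 probes. On A_72_P051491, the lowest, median and highest values were 15.68, 15.82 and 15.98 in TN and 15.72, 15.87 and 16.10 in HS. The groups overlapped, with 5 of 15 HS arrays above every TN array and 1 TN array below every HS array, and the estimate was 0.04 ± 0.04 (SE) (95% interval -0.04 to 0.13, adjusted p = 0.552). The estimate was -0.06 (adjusted p = 0.465) with 75th percentile scaling and -0.02 (adjusted p = 0.921) with the red blood cell score as a covariate. The other 6 HSP90AB1 estimates ran from -0.06 to 0.13. The within-breed estimates of HSP90AB1 reached -0.30 on A_72_P763852 in Creole (adjusted p = 0.341) and 0.33 on A_72_P424164 in LW (adjusted p = 0.218), although these probes overlap. For TRAP1, the mitochondrial form, the estimate was 0.01 ± 0.17 (SE) (adjusted p = 0.983), with an interval from -0.34 to 0.36.

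The co-chaperones did not pass the threshold either. All 5 AHSA1 probes had estimates below 0, from -0.13 to -0.03 (adjusted p from 0.325 to 0.82). With the red blood cell score as a covariate, that of the brightest AHSA1 probe was 0.07 (adjusted p = 0.787). The estimate for CDC37 was 0.05 ± 0.05 (SE) on its brightest probe (adjusted p = 0.536), and below 0 on all 3 probes with 75th percentile scaling. The 3 FKBP4 probes disagreed in sign. For A_72_P352858 the estimate was 0.22 ± 0.12 (SE) (adjusted p = 0.248), and for O14640 and A_72_P033311 it was -0.12 and -0.07. In F1, the TN arrays of A_72_P352858 read 13.68, 13.41, 14.33 and 13.45, and the HS arrays read 14.23, 14.25, 13.94, 14.56 and 14.34. Of the TN arrays, 1 reached the HS range, and the difference in F1 was 0.55 ± 0.20 (SE) (adjusted p = 0.174). HSF1, the regulator of the cytosolic response, was measured by a single probe, which was named by its symbol because its accession was not among those of the pig gene table, and whose match to the pig gene was not checked. It had an estimate of -0.01 ± 0.05 (SE) (95% interval -0.11 to 0.10, adjusted p = 0.945), which was 0.04 (adjusted p = 0.811) with the red blood cell score as a covariate and 0.02 (adjusted p = 0.832) with normexp background correction. Its lowest, median and highest values were 11.30, 11.46 and 11.66 in TN and 11.19, 11.48 and 11.65 in HS.

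Between LW and Creole, AHSA1, TRAP1 and some probes of HSP90AA1, HSP90AB1 and FKBP4 differed. In the model with temperature, 11 of 40 member probes (27.5%) passed for LW minus Creole, all of them lower in LW, against 14.3% of all probes in either direction and 7.42% lower in LW. They belonged to 5 of the 8 genes, and several of them overlap in sequence. Counted by the brightest probe, 2 of 8 genes passed (AHSA1 and TRAP1), against 15.2% of the 10134 named genes. The AHSA1 call on its brightest probe, A_72_P361363, was lost without any of at least 14 single arrays (adjusted p up to 0.0977) and with no filter on dim probes (adjusted p = 0.0587), while that of TRAP1 was not lost. Of the 11 probes, 6 passed under every setting and with each array left out: 2 of AHSA1, 2 of HSP90AB1, O8902 of HSP90AA1 and the TRAP1 probe. The number past the threshold was 6 without Creole HS 1, 6 without Creole HS 3 and 7 without LW HS 3. The median difference was -0.11 over the 40 probes and 0.00 over all probes.

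AHSA1, the activator of the HSP90 ATPase, was lower in LW on all of its 5 probes. On the brightest probe, A_72_P361363, it fell in LW by 0.27 ± 0.09 (SE) on the log2 scale, the smallest difference of the 5, so Creole was 1.2-fold higher (95% interval of LW minus Creole -0.45 to -0.08, adjusted p = 0.0445). The largest of the 5 differences was that on A_72_P533949, whose arrays are given for that reason. On A_72_P533949, the Creole arrays read 9.84, 9.85 and 9.65 in TN and 9.98, 9.59, 10.05, 9.74 and 9.11 in HS. The LW arrays read 9.33, 9.45, 9.21 and 9.37 in TN and 9.05, 9.09, 9.18, 9.13 and 9.41 in HS. The Creole range reached into that of LW through 1 array, Creole HS 5, and 2 LW arrays lay below it. On this probe, AHSA1 fell in LW by 0.49 ± 0.11 (SE) on the log2 scale, so Creole was 1.4-fold higher (95% interval of LW minus Creole -0.72 to -0.26, adjusted p = 0.00578), and 9 of 9 LW arrays were below the Creole mean at their temperature. The change on A_72_P479072 was -0.41 ± 0.09 (SE) (adjusted p = 0.00451), and those on A_72_P363998 and O12478 were -0.37 and -0.28 (adjusted p = 0.0293 and 0.0434). The call on A_72_P363998 was lost without Creole TN 2, Creole HS 1, Creole HS 3, LW HS 1 or LW HS 3 (adjusted p up to 0.0667), and that on O12478 without any of at least 12 arrays (adjusted p up to 0.0994) and with no filter on dim probes (adjusted p = 0.0572). The F1 mean lay between those of the parents, with 9.73 ± 0.29 (SD, n = 8) in Creole, 9.59 ± 0.27 (SD, n = 9) in F1 and 9.25 ± 0.14 (SD, n = 9) in LW. Within slides, the difference on A_72_P533949 was below 0 on 3 of the 4 slides that held both breeds, and ranged from -0.58 to 0.07. With slide as a fixed block it passed again (-0.49, adjusted p = 0.0124).

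TRAP1, the mitochondrial member, showed the largest breed difference of the 8 genes. The Creole arrays read 10.65, 10.23 and 10.71 in TN and 10.43, 10.52, 10.31, 9.83 and 10.27 in HS. The LW arrays read 8.94, 9.06, 9.77 and 9.73 in TN and 8.66, 10.09, 9.34, 10.12 and 9.71 in HS. In LW, 7 of the 9 arrays lay below every Creole array. The level was 10.37 ± 0.28 (SD, n = 8) in Creole, 10.05 ± 0.48 (SD, n = 9) in F1 and 9.49 ± 0.52 (SD, n = 9) in LW. TRAP1 fell in LW by 0.88 ± 0.21 (SE) on the log2 scale, so Creole was 1.84-fold higher (adjusted p = 0.00672), and the difference was below 0 on all 4 slides that held both breeds. The second TRAP1 probe was well above background on 1 array, so the breed difference has no second reading.

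**Figure D3:**
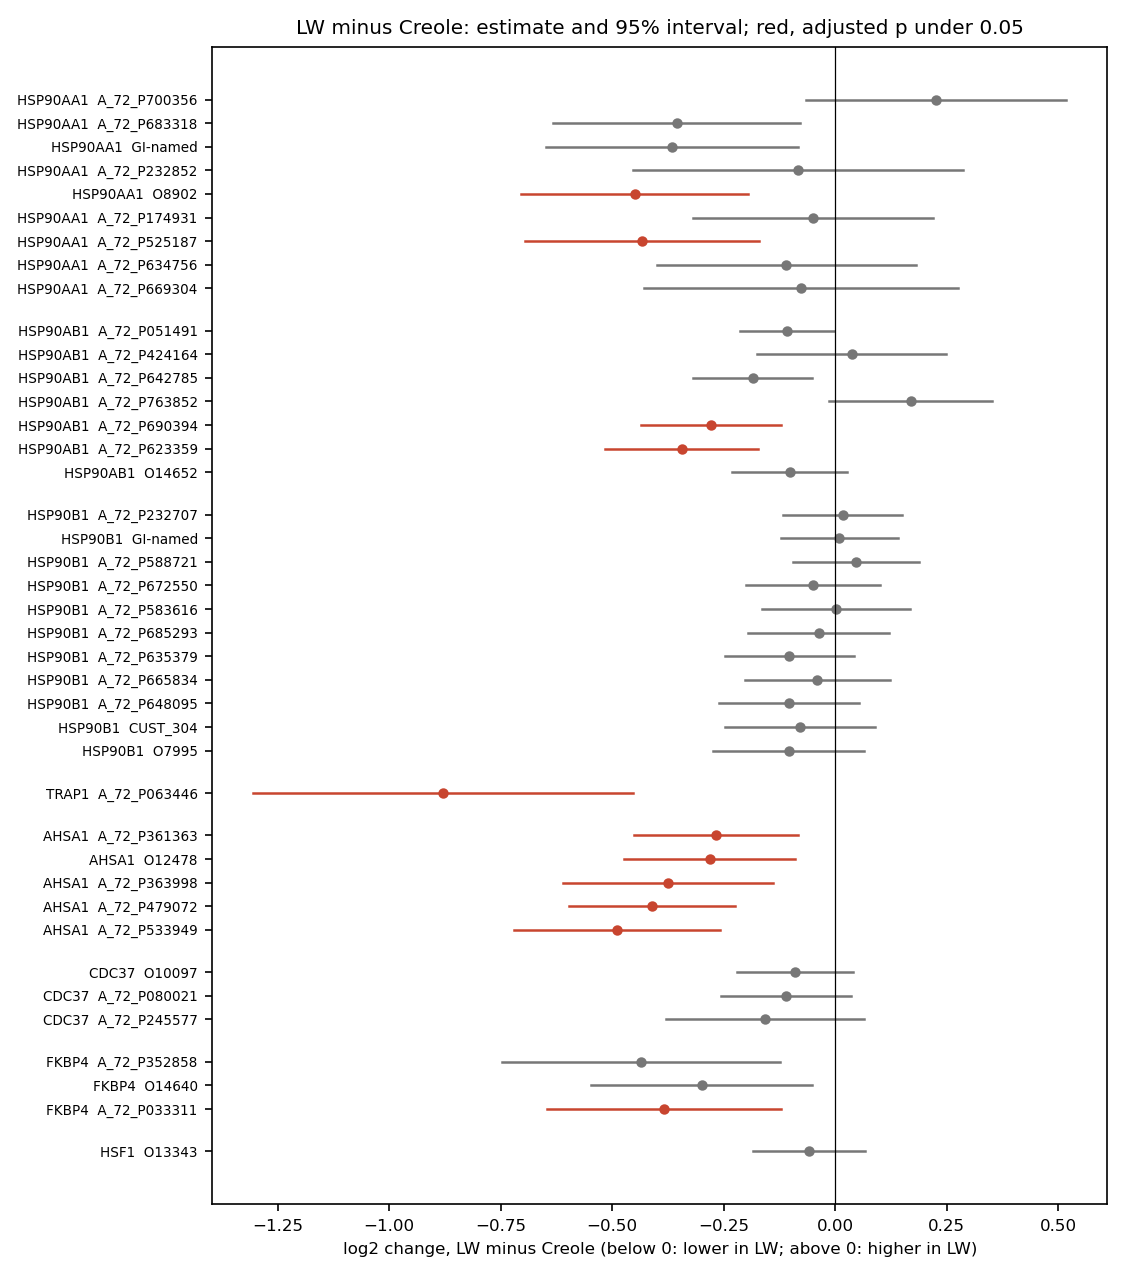
Log2 difference LW minus Creole of the 40 tested member probes, with 95% intervals from limma with temperature in the model; red marks an adjusted p under 0.05. The 5 AHSA1 probes, from -0.49 to -0.27, and the TRAP1 probe at -0.88 lie below 0, and the 11 HSP90B1 probes lie close to 0, from -0.10 to 0.05.

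For the cytosolic chaperones, the breed estimates varied between probes. HSP90AA1 was lower in LW on both spots of the sequence that starts at base 1898, with LW minus Creole at -0.43 ± 0.13 (SE) on A_72_P525187 (adjusted p = 0.0237) and -0.45 ± 0.12 (SE) on O8902 (adjusted p = 0.0167). On A_72_P525187, the lowest, median and highest values were 12.43, 13.27 and 13.66 in Creole, 12.84, 12.99 and 13.53 in F1 and 12.65, 12.77 and 12.98 in LW. The lowest Creole array was again Creole HS 5, and the other 7 Creole arrays all lay above every LW array. The call on A_72_P525187 was lost without Creole HS 1 or Creole HS 3 (adjusted p up to 0.0571), and that on O8902 was not lost without any array. Within slides, the difference was below 0 on 3 of 4 slides and above 0 on slide 5, by 0.47 on A_72_P525187 and 0.40 on O8902. The brightest probe, at base 662, had the opposite sign, with 0.23 ± 0.14 (SE) (adjusted p = 0.306). Without Creole HS 5 this was 0.11 (adjusted p = 0.576), and within slides it was 0.11, -0.01 and 0.23 and, on slide 5, 0.98. The remaining 6 probes ranged from -0.37 to -0.05 without passing, and the average of all 9 differed by -0.19 ± 0.13 (SE, adjusted p = 0.343).

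HSP90AB1 was lower in LW on the overlapping pair A_72_P623359 and A_72_P690394, with LW minus Creole at -0.34 ± 0.08 (SE) (adjusted p = 0.00793) and -0.28 ± 0.08 (SE) (adjusted p = 0.0162). On A_72_P623359, the lowest, median and highest values were 10.25, 10.50 and 10.95 in Creole, 10.27, 10.54 and 10.66 in F1 and 9.96, 10.14 and 10.37 in LW. Of the 9 LW arrays, 7 lay below all Creole arrays, and the difference was below 0 on all 4 slides. The brightest probe differed by -0.11 ± 0.05 (SE) (adjusted p = 0.157). The pair at bases 782 and 789 had estimates above 0 with quantile normalisation, 0.04 and 0.17, and neither passed. The HSP90B1 estimates between LW and Creole ran from -0.10 to 0.05 on its 11 probes (adjusted p from 0.346 to 0.993), and from -0.24 to -0.06 with 75th percentile scaling. That scaling moved the median of all probes with a mean level of at least 13 from 0.01 to -0.07.

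**Figure D4:**
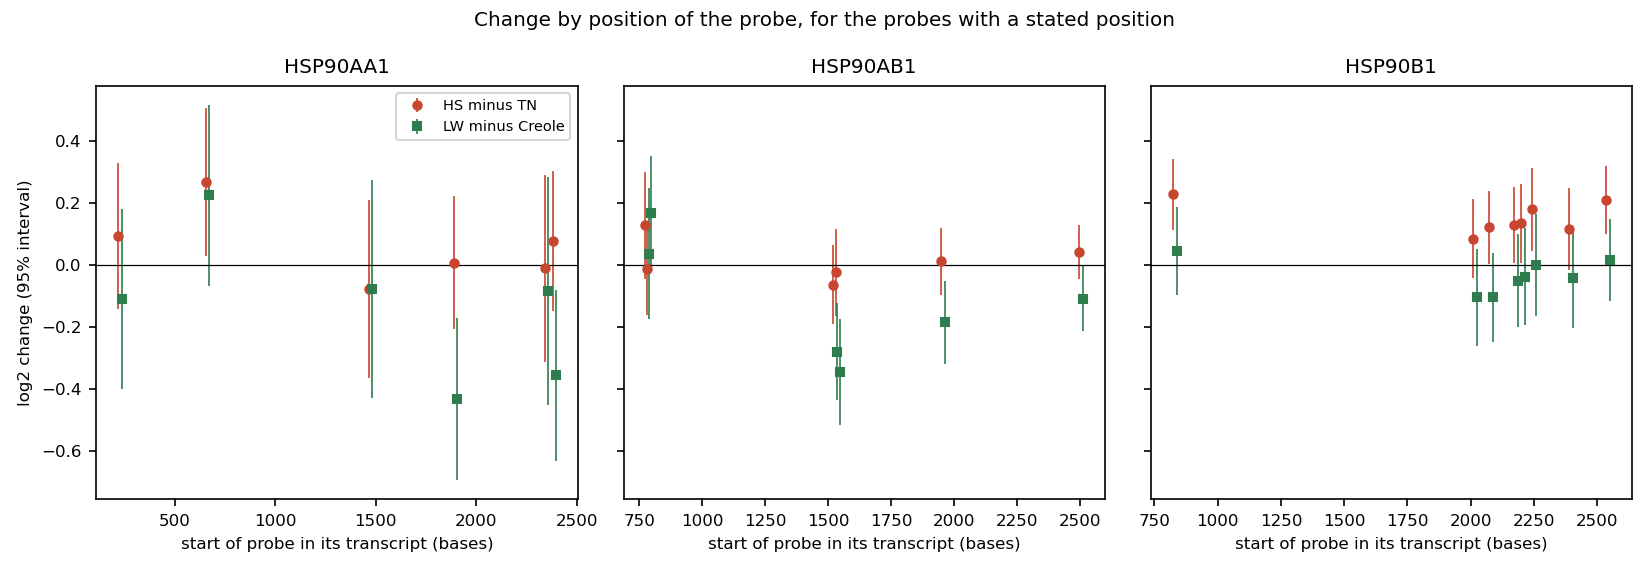
Log2 change with 95% interval against the stated start of the probe in its transcript, for the HSP90AA1, HSP90AB1 and HSP90B1 probes with a stated start; red circles show HS minus TN and green squares LW minus Creole. For HSP90AA1 and HSP90AB1 the green squares above 0 lie at bases 662, 782 and 789, and the lowest, -0.43 and -0.34, lie at 1898 and 1538, whereas the red circles of the HSP90B1 probes are all above 0.

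FKBP4, the steroid receptor co-chaperone, had estimates below 0 on 3 of 3 probes for LW minus Creole, of which 1 passed. The difference was -0.38 ± 0.13 (SE) on A_72_P033311 (adjusted p = 0.044), -0.44 ± 0.15 (SE) on the brightest probe (adjusted p = 0.053) and -0.30 ± 0.12 (SE) on O14640 (adjusted p = 0.0948). The call on A_72_P033311 was lost with slide as a fixed block (adjusted p = 0.105), with no filter on dim probes (adjusted p = 0.0578) and without any of at least 13 arrays (adjusted p up to 0.099), while the brightest probe passed with 75th percentile scaling (adjusted p = 0.03) and without F1 TN 2, F1 TN 4, F1 HS 4, LW TN 2, LW TN 3 or Creole HS 5 (adjusted p from 0.00727 to 0.0498). Within slides, all 3 FKBP4 probes were below 0 on 3 of 4 slides and above 0 on slide 5, by 0.36 to 0.55. The average of the 3 probes differed by -0.37 ± 0.12 (SE, adjusted p = 0.0438). The CDC37 estimates ran from -0.16 to -0.09 on its 3 probes (adjusted p from 0.31 to 0.367), and that of HSF1 was -0.06 ± 0.06 (SE) (adjusted p = 0.561). F1 minus the mean of both parents passed for no member probe with limma (lowest adjusted p = 0.553) and for 0.00671% of all probes, and 3 of 40 had an unadjusted p under 0.05, against 8.69% of all probes. The test for any difference among the 3 breeds passed for 7 of 40 member probes, against 11.3% of all probes: 2 each of AHSA1, HSP90AA1 and HSP90AB1 and the TRAP1 probe. Their number was 14 without Creole HS 5, and 4 without any 1 of Creole TN 1, Creole HS 1, Creole HS 2, LW TN 1, LW TN 4, LW HS 2, LW HS 3 and LW HS 4.

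The adipocyte score did not overlap between these breeds, from -0.31 to 0.00 in LW and from 0.03 to 0.38 in Creole. The red blood cell score overlapped, from -0.30 to 0.25 in LW and from -0.25 to 0.17 in Creole. The fibroblast score ranged from -0.10 to 0.67 in LW and from -0.86 to 0.26 in Creole, and the skeletal muscle score, which had the largest difference of the 8 lists (-0.89), from -2.45 to 1.92 in LW and from -1.43 to 2.78 in Creole. With the red blood cell score as a covariate, an alternative added after seeing the data, the same 11 member probes passed for LW minus Creole. The part of the other scores in the breed differences was not tested.

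Genes around the family were read by the brightest probe, from lists of 5 pathways. Of 21 measured other HSP90 co-chaperones (25 listed), 1 was higher in HS, ITGB1BP2, a muscle chaperone, by 0.37 ± 0.12 (SE, adjusted p = 0.0488), against 12.5% of named genes called in either direction. With the red blood cell score as a covariate, none of the 21 passed. The skeletal muscle score, with 9 of 9 genes above background on every array, ranged from -2.45 to 1.19 in TN and from -1.43 to 2.78 in HS. Its difference, HS minus TN, was 0.51 and did not pass (permutation p = 0.278). For LW minus Creole, 3 of the 21 were higher and 3 lower, against 15.2% of named genes in either direction. The 3 with the smallest p were DNAJC7, a J-domain co-chaperone, higher in LW by 0.50 ± 0.08 (SE, adjusted p = 0.000269), CHORDC1, an HSP90-binding protein, higher by 0.48 ± 0.12 (SE, adjusted p = 0.00763), and the ubiquitin ligase STUB1, lower with -0.27 ± 0.06 (SE, adjusted p = 0.00776).

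Of 21 listed other HSF factors and heat shock targets of HSF1, 17 were measured, while HSPA1A, HSPA1B, DNAJA1 and HSF5 were not. None of the 17 passed for HS minus TN with limma (1 was lower with 75th percentile scaling), against 12.5% of named genes in either direction. At an unadjusted p under 0.05 there was 1 of the 17, against 26.9% of all probes. The median change was -0.01. In LW, 4 of the 17 were lower than in Creole and none higher, against 15.2% of named genes in either direction, with a median difference of -0.10. The HSP110-family chaperone HSPA4 differed by -0.85 ± 0.16 (SE, adjusted p = 0.00128), the HSP70 protein HSPA1L by -0.38 ± 0.10 (SE, adjusted p = 0.0113) and the small heat shock protein HSPB1 by -0.70 ± 0.21 (SE, adjusted p = 0.0235). For each of these, 9 of 9 LW arrays were below the Creole mean at their temperature.

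Beside HSP90B1 in the endoplasmic reticulum, 6 of 19 measured chaperones and folding enzymes passed for HS minus TN, 4 higher and 2 lower, against 12.5% of named genes in either direction, with a median change of 0.02. CNPY3, a partner of HSP90B1 in the folding of Toll-like receptors, was higher in HS by 0.28 ± 0.07 (SE, adjusted p = 0.00729). For CNPY3, 15 of 15 HS arrays lay above the TN mean of their breed. DNAJB11, a co-chaperone of the reticulum's HSP70, changed by -0.23 ± 0.06 (SE, adjusted p = 0.0154), and the lectin chaperone CALR rose by 0.17 ± 0.05 (SE, adjusted p = 0.0229). The list moved in both directions with quantile normalisation, whereas with 75th percentile scaling 3 of the 19 were lower and none higher, and with the red blood cell score as a covariate none passed. Between LW and Creole, 1 was higher and 1 lower, against 15.2% of named genes in either direction. CNPY3 differed by 0.33 ± 0.08 (SE, adjusted p = 0.00873) and ERP29 by -0.21 ± 0.05 (SE, adjusted p = 0.0102).

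Around TRAP1 in the mitochondria, 6 of 11 measured chaperones and proteases were lower in LW and none higher, against 15.2% of named genes called in either direction, with a median difference of -0.30 against -0.01 over all named genes. The protease HTRA2 differed by -0.34 ± 0.06 (SE, adjusted p = 0.000599), SPG7 by -0.38 ± 0.07 (SE, adjusted p = 0.00168) and HSPD1, the mitochondrial HSP60, by -0.34 ± 0.07 (SE, adjusted p = 0.00413), with 19 of 21 HSPD1 probes below 0. With 75th percentile scaling, 7 were lower and 1 higher, and with the red blood cell score as a covariate 7 were lower and none higher. For HS minus TN, 1 of the 11 passed, against 12.5% of named genes in either direction. This was SPG7, a protease subunit, with -0.21 ± 0.06 (SE, adjusted p = 0.0223), and none passed with 75th percentile scaling or with the red blood cell score as a covariate. Among 25 measured HSP90 client proteins, 1 was higher and 2 lower in HS, against 12.5% of named genes in either direction, and none passed with the red blood cell score as a covariate. The oestrogen receptor ESR1 changed by -0.40 ± 0.07 (SE, adjusted p = 0.000568) although its other probe had the opposite sign, and the kinase CHUK by -0.31 ± 0.07 (SE, adjusted p = 0.00413). The aryl hydrocarbon receptor AHR changed by 0.22 ± 0.06 (SE, adjusted p = 0.0191), with 2 of its 3 probes above 0. In LW, 1 of the 25 clients was lower than in Creole and none higher, against 15.2% of named genes in either direction. This was the progesterone receptor PGR, with a difference of -0.78 ± 0.13 (SE, adjusted p = 0.000553).

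Within groups, members were compared by their deviations from the group means over the 26 arrays, in 28 pairs. CDC37 and FKBP4 were the pair that passed, with Pearson r = 0.76 (permutation p = 0.00034, adjusted p = 0.00952) and Spearman rho = 0.74 (permutation p = 0.00021, adjusted p = 0.00588). Their r was 0.61 without the 2 arrays farthest from the median of CDC37 and 0.80 with slide removed. HSP90AA1 and FKBP4 had r = 0.56 (permutation p = 0.0199, adjusted p = 0.231), which was 0.26 without the 2 farthest arrays, and rho = 0.41 (permutation p = 0.0669, adjusted p = 0.363). AHSA1 and FKBP4 had r = 0.48 (permutation p = 0.0248, adjusted p = 0.231), which was 0.60 without the 2 farthest arrays, and rho = 0.54 (permutation p = 0.0115, adjusted p = 0.161), and their r was 0.69 with slide removed. HSP90AA1 and AHSA1 had r = 0.37 (permutation p = 0.0612, adjusted p = 0.343) and rho = 0.44 (permutation p = 0.0405, adjusted p = 0.363), with r = 0.23 without the 2 farthest arrays and 0.80 with slide removed. HSP90AA1 and HSF1 had r = -0.41 (permutation p = 0.045, adjusted p = 0.315) and rho = -0.38 (permutation p = 0.0603, adjusted p = 0.363), with r = -0.25 without the 2 farthest arrays and -0.48 with slide removed. The pairs among HSP90AA1, HSP90AB1 and HSP90B1 did not pass, with r from 0.13 to 0.29 (adjusted p from 0.784 to 0.941). The arrays share slides and normalisation.

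**Figure D5:**
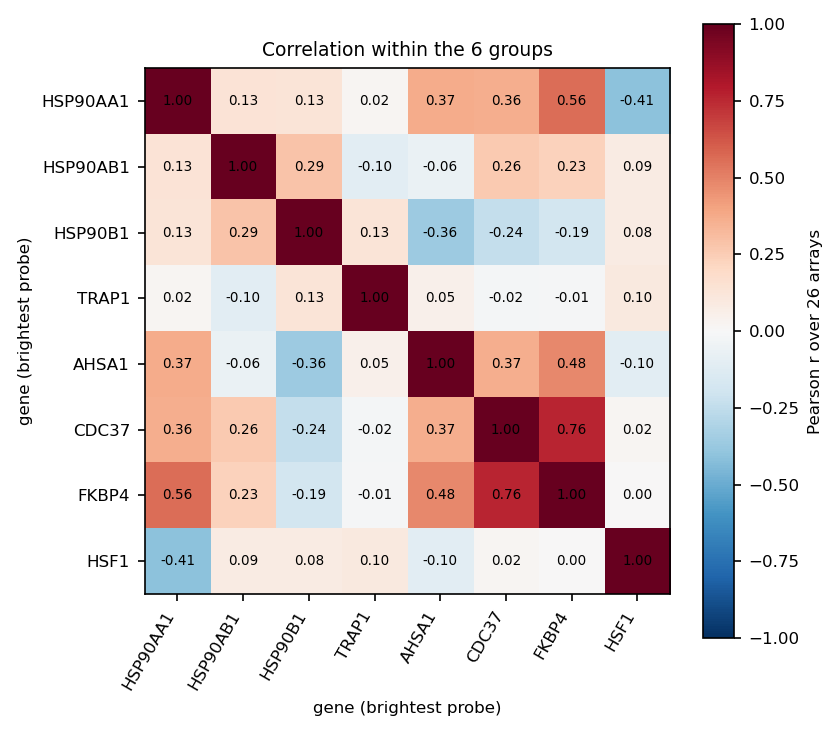
Pearson r between the brightest probes of the 8 genes over 26 arrays, after subtracting each group's mean; colour and number give r. CDC37 and FKBP4 have the highest value, 0.76, and HSP90AA1 and HSF1 the lowest, -0.41.

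By the same measure over 10126 other named genes, HSP90AA1 was most like DDX18 (r = 0.79), ABCF1 (0.77), LOC100510930 (0.76), TBRG1 (0.76) and ATP5F1 (0.75). HSP90AB1 was most like PGM2 (r = 0.67), ZNF281 (0.66), DPY19L4 (0.66), AMMECR1L (0.63) and GAA (0.63). HSP90B1 was most like EEF1G (r = 0.78), RHOBTB3 (0.775), ZNF281 (0.74), LARP6 (0.74) and TMX4 (0.74). These are the highest of many values over 26 arrays and are given as a description.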

How the data were processed

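Total RNA of SCAT from 26 pigs was hybridised by the authors on one-colour Agilent arrays of 60306 non-control spots, read with Agilent Feature Extraction 10.10.1.1 per the submitters' processing notes. Per the file headers, each scanner file gives median, mean and background pixel intensity per spot, and a processed intensity, as deposited by the authors, without scaling between arrays, with flags for spots well above background, saturated or non-uniform. A further table that the authors deposited, on the log2 scale, holds their quantile-normalised median intensity of a subset of probes, and was used as an alternative. The members, the gene lists and the comparisons were chosen with earlier results of these data known.

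Median intensities were quantile-normalised, as the study's methods state, and no background correction was applied, in R 4.3.3 with limma 3.58.1. Between 41314 and 46185 spots per array were well above background, and the median spot was from 3.56 to 4.72 times as bright as the median negative control. Up to 16 non-uniform spots per array were set to missing. Keeping probes above background on 8 arrays or more, the size of the smallest breed, left 44703. lmFit and eBayes with an intensity trend gave HS minus TN with breed fixed, breed contrasts with temperature fixed, and within-breed changes and their interaction from a model of the 6 groups. Benjamini-Hochberg adjustment covered all tested probes. The authors' random effects for pen, slaughter day, father and mother are not in the labels and were left out. The study's methods describe littermates and shared pens within each breed, whereas the fits treat all pigs as independent. The SE and p-values, also those between breeds, may therefore be too small. The number of arrays limits the precision.

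Probes were named by accession (10273), symbol (14467), synonym (194) or description (2) against RefSeq names of Sscrofa11.1, and no genome was used. From each pathway list, up to 3 genes past the threshold with the smallest p are named, and for the 3 HSP90 paralogs the 5 most correlated genes. Scores over marker lists were tested by 100000 permutations within breeds, and correlations by 100000 permutations within groups. The model was tested on simulated data. Alternatives were another scaling (75th percentile of the processed signal), normexp with offset 50, the series matrix, other filters, no breed term, slide as a fixed or random block, the red blood cell score as a covariate, array weights, probe means and leaving out each array. Slides and scan times coincided.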

Additional observations from a re-analysis of the deposited data

Results flagged for a closer look

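HSF1 in F1 HS stood apart on 1 array. Its value of 11.31 was separated from the nearest array, at 11.53, by 0.774 of the range of the group, which ran up to 11.59. Of 40 groups of 4 or 5 arrays examined over the 8 genes, this was 1 case, and chance flags about 1 in 20 such groups.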

How the results depend on the processing

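The count of member probes past the threshold for HS minus TN was 3, and it was 0 with 75th percentile scaling and 0 with the red blood cell score as a covariate. It was 3 under each of the other 8 settings that give a count, and from 3 to 4 with each array left out. Within LW it was 2, against 0 with 75th percentile scaling and 0 with slide as a fixed block, and from 0 to 3 with each array left out. For LW minus Creole it was 11, from 8 to 14 under the alternatives and from 6 to 16 with each array left out. For any breed difference it was 7, against 11 with 75th percentile scaling and 4 with slide as a fixed block, and from 4 to 14 with each array left out. In Creole, in F1, for F1 minus mid-parent and for the interaction it was 0 under every setting and with each array left out. With the 75th percentile scaling, 38.3% of called probes were higher in HS, against 42.4%, and with the red blood cell score as a covariate 30.4%. The causes were not tested. No paired analysis was possible, since each array was a separate animal killed at a single temperature and the labels do not name litters. For TRAP1 and HSP90B1, 1 probe each did not reach the limit of signal over background and was not tested. The strand of that TRAP1 probe was not checked.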
